A study of Mus musculus with 17 samples.

Results

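Cyclic AMP is the second messenger through which incretin hormones amplify insulin release, and 10 genes of its production and sensing were followed in mouse β cells: the adenylyl cyclases Adcy3, Adcy5, Adcy6, Adcy8 and Adcy9, the protein kinase A (PKA) catalytic subunits Prkaca and Prkacb, the PKA regulatory subunits Prkar1a and Prkar2b, and Rapgef4, which encodes Epac2. The genes were taken by symbol, and the estimated counts of all their transcripts were summed per gene. They are 10 of 54456 gene symbols in the data, and all 10 were among the 22733 genes that passed the filter on low counts. Islets of male mice on a C57BL/6 background were cultured for 72 hours in 2.8 mM (low) or 16.7 mM (high) glucose, and tdTomato-positive cells were then sorted for polyA RNA sequencing. Control cells, labelled WT, came from tdTomato reporter mice that carry RIP-Cre, a Cre recombinase under the rat insulin promoter. Pcbp2βKO cells, labelled PCBP2KO, came from RIPCre+;Pcbp2Fl/Fl;Tdtomato mice and lack the RNA-binding protein PCBP2 wherever this Cre has acted. Both genotypes thus carry Cre and reporter, and no cells without Cre were compared here. There were 3 control samples at low glucose, 4 control samples at high glucose and 5 Pcbp2βKO samples at each glucose level. Whether each sample came from a separate animal or from pooled islets is not given, so p-values measure the spread between these samples, which may be partly technical. Total estimated counts ranged from 47385513 to 82419400 per sample.

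In the β cell, receptors coupled to the stimulatory G protein activate membrane adenylyl cyclases, which make cAMP from ATP, and several cyclases also respond to calcium. PKA at rest is a tetramer in which a pair of regulatory subunits holds a pair of catalytic subunits inactive, and cAMP binding to the regulatory subunits frees the catalytic ones to phosphorylate channels, exocytosis proteins and the transcription factor CREB. Epac2 is the other main cAMP sensor of the β cell, a guanine nucleotide exchange factor that activates the small GTPase Rap and promotes granule release without PKA.

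The labels were first checked. Pcbp2 lay between 50.7 and 73.4 CPM (estimated counts scaled to a common library size by the TMM method) in control cells at low glucose and between 15.5 and 19.2 CPM in Pcbp2βKO cells. At high glucose it lay between 35.0 and 45.4 CPM in control cells and between 5.81 and 10.03 CPM in Pcbp2βKO cells. The genotypes did not overlap at either glucose level, and the differences gave the smallest p that exact two-sided permutation tests allow here (p = 0.0179 at 2.8 mM and p = 0.00794 at 16.7 mM). Txnip, a gene known to be induced by glucose, lay between 19.0 and 41.7 CPM in all samples at low glucose and between 406 and 1426 CPM at high glucose.

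Of the 10 β cell markers, Ins2 was the most abundant in every sample. They summed to 119026 to 123271 CPM in control and 67329 to 97367 CPM in Pcbp2βKO cells at low glucose. At high glucose they summed to 272054 to 525769 and 359176 to 475315 CPM. Markers of other islet cells were present as well. The 6 α cell markers summed to 691 to 2623 CPM in control and 1570 to 9438 CPM in Pcbp2βKO cells at low glucose, and to 538 to 1572 and 953 to 1812 CPM at high glucose, most of it from Gcg or Ttr. The 3 δ cell markers summed to 250 to 390 CPM in control and 480 to 1316 CPM in Pcbp2βKO cells at low glucose, and to 147 to 335 and 198 to 565 CPM at high glucose. Ppy and Pyy, markers of PP cells, together gave 1111 to 1207 and 1431 to 7424 CPM at low glucose and 368 to 999 and 470 to 1456 CPM at high glucose. At low glucose the β, δ and PP sums thus did not overlap between genotypes. The β sums of both genotypes and the PP sums of control cells did not overlap between glucose levels. The 5 macrophage markers summed to 18.8 to 157 CPM at low glucose and 1.71 to 15.5 CPM at high glucose, led by Lyz2 or Cd68, and all 5 passed the test as lower at high glucose in Pcbp2βKO cells. The 5 ductal markers summed to 384 to 1182 CPM, led by Krt7 or Spp1, while Krt19, a defining ductal gene, reached at most 2.17 CPM. Acinar, endothelial and stellate markers summed to at most 5.19 CPM in any sample, with 2 to 4 of the 6 acinar markers at 0 counts. The 6 proliferation genes summed to at most 12.8 CPM at low glucose and to 2.18 to 271 CPM at high glucose. The part of any of these cells in the values below was not tested, and in bulk samples fewer cells of a type and less RNA per cell cannot be told apart.

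At high glucose 3 libraries stood apart from their groups on the first principal component of all tested genes, which held 30% of the variance. Replicate 4 of the control cells scored 9.89 where the other 3 scored 97.0 or more, and replicates 4 and 5 of the Pcbp2βKO cells scored 21.4 and 33.3 where the other 3 scored 90.9 or more. Fold changes of Prkar1a and Rapgef4 with glucose are given with and without the 3 libraries apart at high glucose. The same holds for Adcy8 with glucose in Pcbp2βKO cells and for the Prkar1a genotype difference at high glucose. It also holds for the normalised counts of the Prkar1a transcripts. Other values include these libraries unless stated.

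Prkar1a, Prkacb, Rapgef4 and Prkar2b had higher mean levels than the cyclases and Prkaca in all 4 groups, although samples of Prkar2b overlapped those of the next gene in control cells at high and Pcbp2βKO cells at low glucose. Per transcript length (TPM, the share of transcripts scaled to a common total), Prkar1a ranked highest in all 4 groups, with 234 ± 4.4 TPM (SD, n = 3) in control cells at low glucose, 288 ± 74.7 (n = 4) at high glucose, 212 ± 29.4 (n = 5) in Pcbp2βKO cells at low glucose and 177 ± 31.1 (n = 5) at high glucose. Prkacb followed with group means of 56.7 to 91.7 TPM, Rapgef4 with 31.8 to 35.6 TPM and Prkar2b with 6.02 to 9.06 TPM. Adcy6, Prkaca and Adcy9 had group means between 1.14 and 3.23 TPM, and neighbours among these 3 genes overlapped in every group. Adcy3 had means of 0.537 to 0.943 TPM. Short transcripts without coding sequence, of 484 and 426 bases, held group means of 22.0% to 37.5% and 17.7% to 41.1% of it. A coding Adcy3 transcript of 4348 bases alone had group means of 0.0807 to 0.191 TPM. A retained-intron transcript of Adcy6 held group means of 20.8% to 30.6% of that gene's TPM. Adcy8 had 0.0336 to 0.174 TPM and Adcy5 0.0103 to 0.0331 TPM, the lowest of the 10. Prkacb and Rapgef4 did not overlap except in control cells at high glucose.

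**Figure D1:**
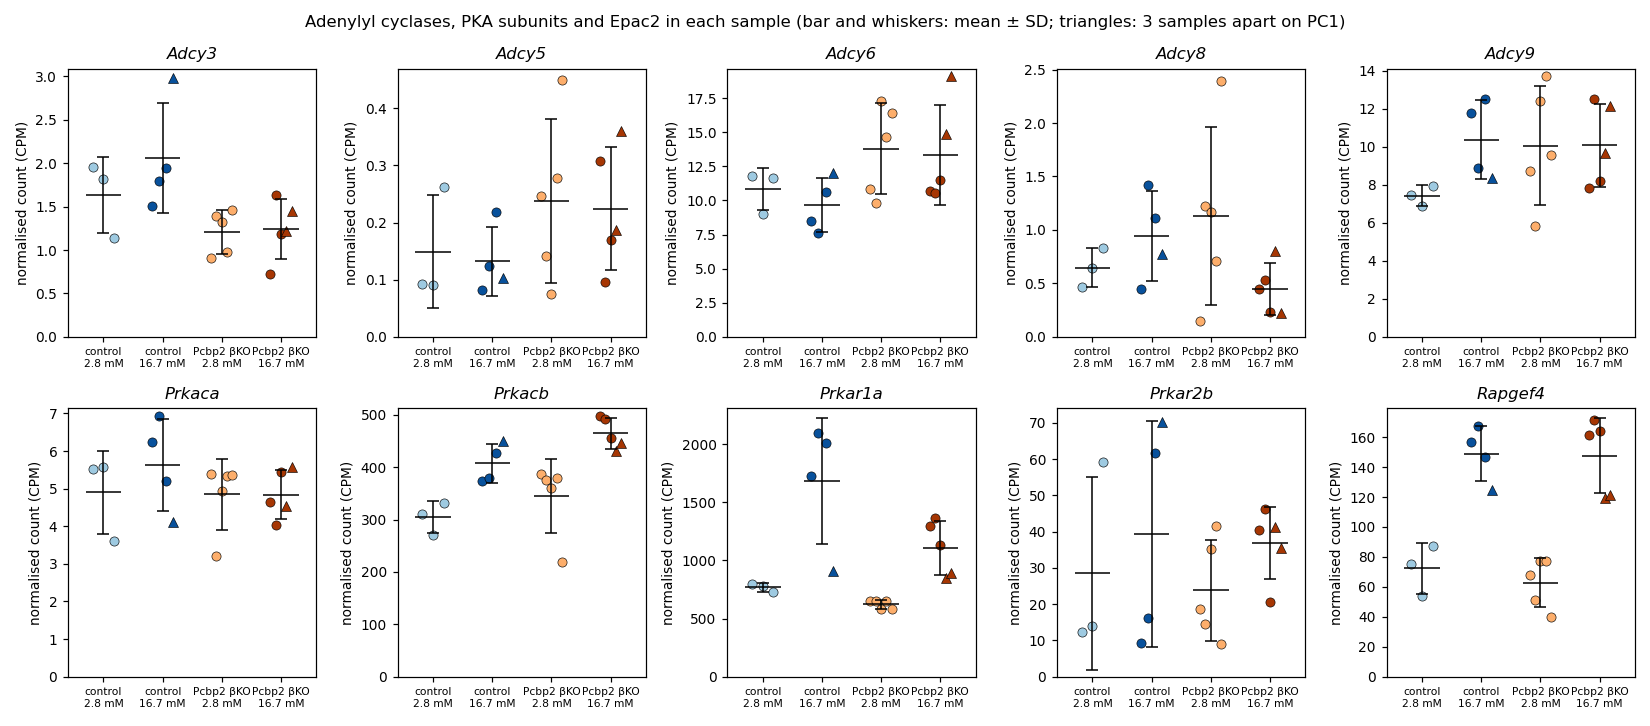
Normalised counts (CPM, linear axes from 0) of the 10 genes in each of the 17 samples. Points are samples, long bars and whiskers are the mean and SD of a group, and triangles are the 3 libraries apart on the first principal component; Prkar1a, Prkacb and Rapgef4 lay higher at 16.7 mM than at 2.8 mM glucose in both genotypes without overlap.

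Relative to the typical gene, the reference that TMM sets, high glucose raised 2 of the 10 genes in control cells, Prkar1a and Rapgef4, and the same 2 in Pcbp2βKO cells, where Prkar1a turned to -0.26 on the log2(TPM + 1) scale. A gene was called where its edgeR adjusted p was under 0.05 and its fold change over 1.5, and by that rule 13.9% of all tested genes were called for glucose in control cells (7.16% higher) and 23.9% in Pcbp2βKO cells (13.5% higher). The share of the 10 genes called was near that of all genes. Same-numbered control samples deviated together, and with the replicate number as a block 4769 genes were called for glucose in control cells, against 3150 without it, with Prkar1a and Rapgef4 called in both fits. Leaving out 1 sample moved the 3150 to between 1384, without replicate 2 at low glucose, and 4475, with 2 of the 10 genes called each time. The median log2 fold change of the 10 genes was 0.44 in control cells, where that of all tested genes was 0.04, and 0.02 in Pcbp2βKO cells, where that of all genes was 0.01. In control cells 4 of the 10 (Adcy9, Prkacb, Prkar1a and Rapgef4) did not overlap between glucose levels, as did 24.1% of all tested genes, and in Pcbp2βKO cells 3 did not (Prkacb, Prkar1a and Rapgef4), as did 21.7%. The comparisons of glucose and of genotype share samples and are given side by side.

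Prkar1a encodes the type I regulatory subunit RIα and lies at chr11:109513434-109560633 (GRCm39, + strand). In control cells it measured 799, 777 and 729 CPM at low glucose and 1724, 2096, 2006 and 908 CPM at high glucose. Pcbp2βKO samples held 654, 650, 581, 651 and 579 CPM at low glucose and 1293, 1361, 1132, 845 and 889 CPM at high glucose. The low-glucose samples were tightly grouped, and the lowest values at high glucose, 908, 845 and 889 CPM, all belonged to the 3 libraries apart on the first component. Prkar1a rose 2.19-fold with glucose in control cells (log2 fold change 1.13 ± 0.23 SE, edgeR adjusted p = 0.00404) and 1.77-fold in Pcbp2βKO cells (0.83 ± 0.19, edgeR adjusted p = 0.00274). Without the 3 libraries, chosen after the data were seen, the log2 fold changes were 1.31 and 0.98 (edgeR adjusted p = 4.18e-06 and 5.42e-06).

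Between genotypes, Prkar1a was 0.61 ± 0.20 lower on the log2 scale in Pcbp2βKO than in control cells at high glucose and did not pass the test (edgeR adjusted p = 0.163). The groups overlapped, at 908 to 2096 against 845 to 1361 CPM. Without the 3 libraries apart it passed, with a log2 fold change of -0.62 (edgeR adjusted p = 0.0106), and without replicate 4 of the control cells alone the log2 fold change was -0.83 (edgeR adjusted p = 0.00398). At low glucose the 2 genotypes did not overlap, with 729 to 799 CPM in control and 579 to 654 CPM in Pcbp2βKO cells, but the log2 fold change of -0.30 ± 0.21 did not pass the test (edgeR adjusted p = 0.618). The sums of β, δ and PP cell markers did not overlap in this comparison either, and their part in it was not tested. Prkar1a was the only one of the 10 genes without overlap between genotypes at low glucose, where 10.9% of all tested genes had none. The difference between the glucose responses of the genotypes was -0.31 ± 0.29 (interaction, edgeR adjusted p = 0.9999), with a 95% interval from -0.88 to 0.27. The study names Prkar1a among the genes changed by Pcbp2 loss at high glucose, in a cluster with a blunted rise. Its fit included a batch factor that was not fitted here.

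Prkar1a mRNA begins at alternative first exons, and the mix of transcripts differed between the glucose levels. Prkar1a-203 begins at an upstream first exon, chr11:109540178-109540353, and Prkar1a-201 at a downstream one, chr11:109541438-109541899, so that their 5′ ends lie 1260 bases apart in the GENCODE annotation used (GRCm39). Both carry the same 1143 coding bases, with the start codon in exon 3 of Prkar1a-203 and in exon 2 of Prkar1a-201. Together these 2 of the 5 annotated transcripts held most of the gene's TPM in every group. The stretch from 250 bases upstream of the Prkar1a-203 start to the end of the first exon of Prkar1a-201 holds a full cAMP response element (CRE), TGACGTCA, the palindrome bound by CREB, and, apart from it, 3 copies of its shorter core TGACG or the reverse complement CGTCA. They are shown because the share of the transcripts from the 2 starts differed between glucose levels. Capitals mark the motif, and all stretches read along the + strand of GRCm39.
Core 140 bases upstream of the Prkar1a-203 start (chr11:109540028-109540052): tgcttttattCGTCAgtgttaatac
Core between the starts (chr11:109540875-109540899): gtactgcccaTGACGcagtctggca
Core 150 bases into the first exon of Prkar1a-201 (chr11:109541578-109541602): tctagctagaTGACGacgggctaag
Full CRE 288 bases into the first exon of Prkar1a-201 (chr11:109541716-109541743): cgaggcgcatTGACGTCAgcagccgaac
In RefSeq promoter windows (GRCm38.p6 table, 250 bases before to 50 after a start) the full CRE stood in 2 of the 6 windows of Prkar1a, 49 bases upstream of a start in one and 38 bases downstream of a start in the other. It stood in none of the other 12 windows of the 7 other matched genes, and in 1.79% of all 32851 windows, both strands being covered by the palindrome. The shorter core, searched on both strands and also contained in the full CRE, stood in 6 of the 18 windows and in 20.8% of all windows. In windows of the same span around GENCODE starts no Prkar1a window held the full CRE, which lies beyond the window of Prkar1a-201, while 1.89% of all 46311 windows held it. A match of letters is a description and not a site of binding.

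Prkar1a-203 made up 25.8%, 21.7% and 28.1% of Prkar1a TPM in control cells at low glucose and 42.4%, 46.7%, 47.3% and 36.5% at high glucose. Its share in Pcbp2βKO cells was 22.2%, 20.6%, 20.8%, 20.9% and 14.3% at low glucose and 50.1%, 46.8%, 44.9%, 38.0% and 36.3% at high glucose. The glucose levels did not overlap in either genotype, and the 3 libraries apart had the lowest shares of their groups. Prkar1a-201 mirrored it, with group means of 65.5% ± 3.51 (SD, n = 3) and 47.7% ± 5.45 (n = 4) in control cells and 70.9% ± 4.59 and 49.4% ± 5.87 (n = 5 each) in Pcbp2βKO cells at low and high glucose. In normalised counts, Prkar1a-203 had means of 217 ± 23.4 and 833 ± 330 CPM in control cells at low and high glucose, and Prkar1a-201 had 540 ± 47.8 and 831 ± 205 CPM. In Pcbp2βKO cells the means were 140 ± 28.3 and 534 ± 175 CPM for Prkar1a-203 and 473 ± 24.1 and 559 ± 62.3 CPM for Prkar1a-201. Without the 3 libraries apart, high-glucose means of Prkar1a-203 and Prkar1a-201 were 988 ± 137 and 930 ± 64.9 CPM in control cells (n = 3). In Pcbp2βKO cells they were then 654 ± 85.4 and 596 ± 44.5 CPM (n = 3). No test was run on the shares. Among 15010 transcripts of tested genes with a mean of at least 5 TPM, each holding at least 10% of its gene's TPM in some group mean but 100% in none, 19.2% did not overlap between glucose levels in control cells and 14.0% in Pcbp2βKO cells, and 1.93% and 1.20% combined that with a change of mean share at least that of Prkar1a-203.

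**Figure D2:**
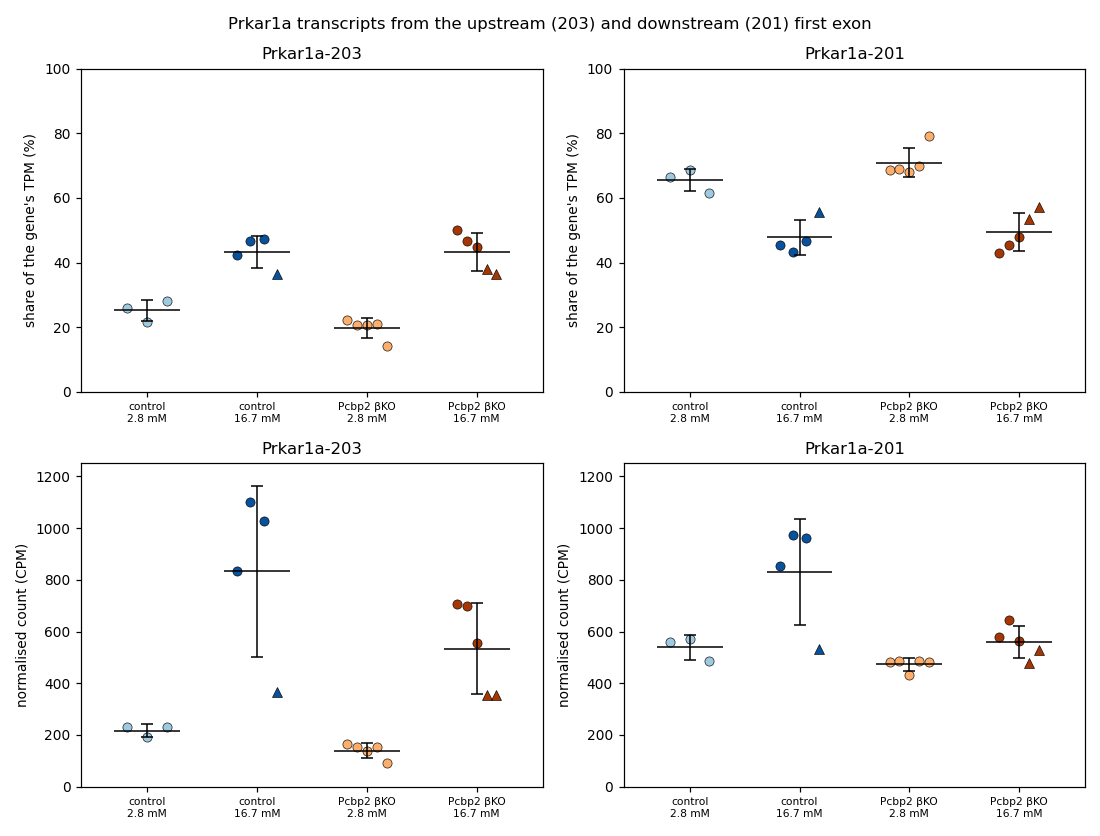
Share of Prkar1a TPM in percent (upper row) and normalised counts in CPM (lower row) of the transcripts from the upstream (Prkar1a-203) and downstream (Prkar1a-201) first exon in each sample, with the mean and SD of each group; triangles are the 3 libraries apart on the first principal component. The share of Prkar1a-203 was at most 28.1% in any low-glucose sample and at least 36.3% in any high-glucose sample.

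Kallisto divides reads among transcripts that share most of their exons, so these shares are estimates that rest on the reads of the stretches not shared. These include more than the first exons, since Prkar1a-203 is annotated with 12 exons and Prkar1a-201 with 11. The annotated lengths of both transcripts in the data (3513 bases for Prkar1a-203 and 3359 for Prkar1a-201) were shorter than in the annotation used for the coordinates (3717 and 3819), so the ends of the quantified models may lie elsewhere.

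Prkar2b, the type II regulatory subunit RIIβ at chr12:32008448-32111363 (- strand), varied widely between samples of a group. It measured 12.3, 13.8 and 59.3 CPM in control cells at low glucose and 9.42, 16.04, 61.8 and 70.3 CPM at high glucose. In Pcbp2βKO cells it lay between 9.03 and 41.6 CPM at low and between 20.5 and 46.3 CPM at high glucose. All 4 groups overlapped, and no comparison passed (the smallest edgeR adjusted p was 0.426, for glucose in Pcbp2βKO cells). The mix of its transcripts differed between glucose levels in Pcbp2βKO cells, where Prkar2b-202 held 51.6% ± 13.6 (SD, n = 5) of TPM at low and 81.8% ± 6.91 at high glucose and Prkar2b-203 held 28.0% ± 6.98 and 11.5% ± 2.36, both without overlap. In control cells Prkar2b-202 held 68.2% ± 17.7 (n = 3) and 70.5% ± 16.5 (n = 4), with overlap. Prkar2b-203 held 17.7% ± 6.30 and 24.0% ± 17.2 there, also with overlap. Prkar2b-201 held group means of 5.49% to 20.4% and overlapped between glucose levels in both genotypes.

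Prkacb, the catalytic subunit Cβ at chr3:146435311-146518793 (- strand), held 82.6% to 95.0% of the summed TPM of Prkaca, Prkacb and Prkx in each sample. It measured 310, 271 and 333 CPM in control cells at low glucose and 374, 379, 428 and 449 CPM at high glucose. In Pcbp2βKO cells it measured 387, 376, 360, 380 and 219 CPM at low glucose, replicate 5 lying far below the rest, and 498, 493, 455, 431 and 446 CPM at high glucose. The glucose levels did not overlap in either genotype. The log2 fold changes were alike in size, 0.42 ± 0.17 in control cells (edgeR adjusted p = 0.0974) and 0.43 ± 0.14 in Pcbp2βKO cells (edgeR adjusted p = 0.0227), and neither was called, the second because it stayed under 1.5-fold. Their direction depended on the scale. Per length the means at low and high glucose were 72.6 ± 10.4 and 56.7 ± 15.9 TPM in control cells. In Pcbp2βKO cells they were 91.7 ± 24.8 and 59.6 ± 4.69 TPM. Prkacb transcripts begin at several first exons that change the amino-terminal end of the protein. Prkacb-202, from the most upstream first exon (chr3:146518393-146518793), held group means of 50.8% to 55.7% of the gene's TPM, Prkacb-204 held 23.0% to 29.1% and Prkacb-203 held 14.2% to 15.5%. Of these, Prkacb-204 alone did not overlap between glucose levels, and only in control cells, at 22.4% to 23.9% against 25.3% to 36.1%.

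Prkaca, the catalytic subunit Cα at chr8:84699575-84723091 (+ strand), lay between 3.20 and 6.94 CPM over all 17 samples. Its log2 fold change was 0.20 ± 0.24 with glucose in control cells and 0.00 ± 0.20 in Pcbp2βKO cells, and the 95% interval of the latter ran from -0.39 to 0.39.

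Since scaling of the libraries cancels in a ratio within a sample, the PKA subunits were also set against each other per length. The ratio of Prkar1a to Prkacb TPM was 3.27 ± 0.42 (SD, n = 3) in control cells at low glucose and 5.45 ± 1.97 (n = 4) at high glucose, where the samples read 6.04, 7.22, 5.91 and 2.62 and the last was the library apart. For Pcbp2βKO cells the ratio was 2.42 ± 0.52 and 2.98 ± 0.42 (n = 5 each). The first 3 of these control samples stood above every Pcbp2βKO sample, of which the highest read 3.44, and the last stood within their range. The 4 regulatory genes (Prkar1a, Prkar1b, Prkar2a and Prkar2b) summed to 4.602 ± 0.42 times the TPM of the 3 catalytic genes in control cells at low glucose and 5.93 ± 1.70 times at high glucose, and to 3.55 ± 0.44 and 3.57 ± 0.26 times in Pcbp2βKO cells. In control cells at high glucose the library apart read 3.46, and the others read 6.36 to 7.37. Prkar1a made up 60.6% to 63.4% of the regulatory TPM in control cells at low glucose and 70.0% to 89.7% at high glucose, and 57.7% to 64.0% and 69.1% to 84.0% in Pcbp2βKO cells. These ratios of mRNA were not tested and say nothing of the subunit proteins.

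**Figure D3:**
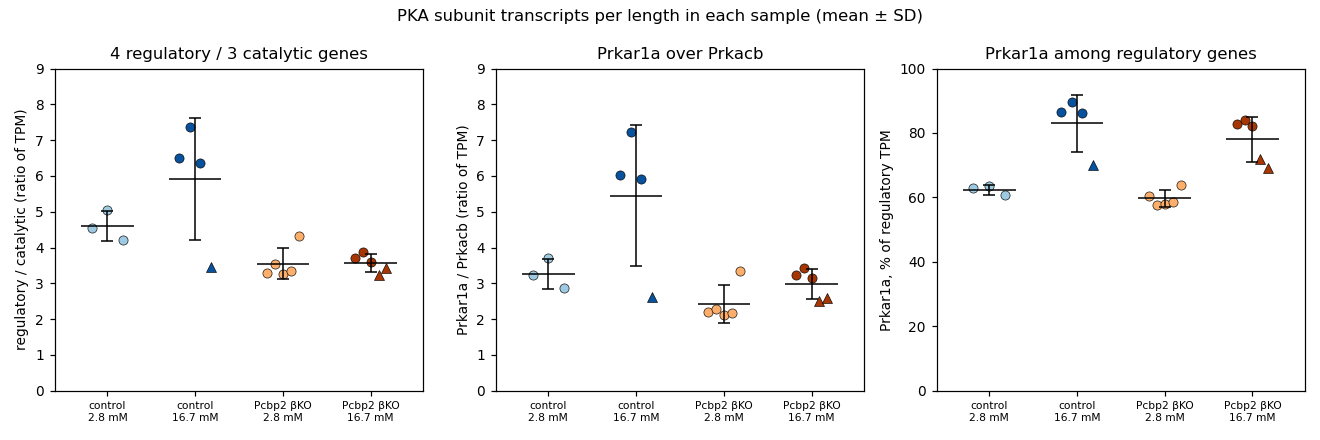
Ratios of PKA subunit TPM in each sample (left and middle, unitless) and the percentage of regulatory TPM held by Prkar1a (right), with the mean and SD of each group; triangles are the 3 libraries apart on the first principal component. The ratio of Prkar1a to Prkacb was 5.91 or more in 3 control samples at 16.7 mM and at most 3.70 in all other samples.

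Rapgef4 lies at chr2:71811328-72089838 (+ strand). It measured 75.5, 54.1 and 87.3 CPM in control cells at low glucose and 157, 168, 147 and 125 CPM at high glucose. Pcbp2βKO samples held 68.0, 51.5, 77.2, 77.0 and 39.9 CPM at low glucose and 161, 171, 164, 120 and 121 CPM at high glucose. Every high-glucose sample exceeded every low-glucose sample. Rapgef4 rose 2.06-fold with glucose in control cells (log2 fold change 1.04 ± 0.23, edgeR adjusted p = 0.00542) and 2.35-fold in Pcbp2βKO cells (1.23 ± 0.18, edgeR adjusted p = 9.11e-05). Without the 3 libraries apart the log2 fold changes were 1.10 and 1.36. The genotypes overlapped at both glucose levels, with log2 fold changes of -0.01 ± 0.19 at high and -0.21 ± 0.21 at low glucose, and the 95% interval at high glucose ran from -0.39 to 0.36. The 31-exon transcript from the most upstream first exon (chr2:71811328-71811695), which is the longer form known from islets, held group means of 43.1% to 51.4% of the gene's TPM and 88.6% to 91.8% of its estimated counts. In Pcbp2βKO cells its share of TPM did not overlap between glucose levels, at 39.1% to 47.1% against 47.7% to 58.3%. In control cells it overlapped, at 39.6% to 52.1% against 44.1% to 59.4%. A 28-exon transcript with its first exon at chr2:71884948-71885368 held 0.413% to 3.28% of the estimated counts in any sample and is described here after its values were seen. A short transcript of 694 bases with no coding sequence made up 15.04% to 19.7% of TPM at low and 7.66% to 11.1% at high glucose in control cells, and 15.6% to 20.4% and 5.73% to 13.5% in Pcbp2βKO cells, without overlap in either genotype. Of the estimated counts this transcript held group means of 1.81% to 4.12%. Another short one, of 438 bases and also without coding sequence, held group means of 27.4% to 31.9% of TPM and 2.83% to 3.21% of estimated counts. Its first exon (chr2:71885329-71885368) lies within that of the 28-exon transcript, so the share of the latter alone does not measure the use of that exon. The antisense gene Rapgef4os2 shares 452 exonic bases with Rapgef4, and since the library kit does not mark strand, their reads cannot be told apart there.

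The adenylyl cyclases and Prkaca were the least abundant of the 10 genes. Adcy6, a cyclase inhibited by calcium at chr15:98487854-98507957 (- strand), lay between 9.04 and 11.8 CPM in control cells at low glucose and between 7.604 and 11.998 CPM at high glucose. The range in Pcbp2βKO cells was between 9.81 and 17.3 CPM at low and between 10.5 and 19.1 CPM at high glucose. The groups overlapped throughout. The difference between genotypes at high glucose was 0.46 ± 0.22 on the log2 scale, higher in Pcbp2βKO cells (edgeR adjusted p = 0.404).

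Adcy9, a cyclase less sensitive to forskolin at chr16:4102752-4238428 (- strand), measured 7.44, 6.86 and 7.95 CPM in control cells at low glucose and 11.8, 8.89, 12.5 and 8.35 CPM at high glucose. These groups did not overlap, but the log2 fold change of 0.48 ± 0.26 did not pass (edgeR adjusted p = 0.231). Per length the direction turned, with means of 1.54 ± 0.17 TPM at low and 1.23 ± 0.24 TPM at high glucose. In Pcbp2βKO cells Adcy9 lay between 5.82 and 13.7 CPM at low and between 7.82 and 12.5 CPM at high glucose, with a log2 fold change of 0.00 ± 0.21. Its transcripts of 4457 and 4507 bases are annotated with the same coding bases, and their estimated shares changed places between samples of 1 group, from 0.174% to 97.8% for the shorter one in control cells at low glucose. The pseudogene Gm6142 shares 325 exonic bases with Adcy9 on the same strand, so its counts are uncertain there.

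Adcy3, a cyclase known from olfactory neurons at chr12:4182969-4263527 (+ strand), measured 1.957, 1.82 and 1.14 CPM in control cells at low glucose and 1.51, 1.80, 1.95 and 2.98 CPM at high glucose, the highest value again in replicate 4. In Pcbp2βKO cells it lay between 0.905 and 1.46 CPM at low and between 0.719 and 1.64 CPM at high glucose. The difference between genotypes at high glucose, -0.73 ± 0.28, did not pass (edgeR adjusted p = 0.280), and with an offset for transcript length it was 0.09. Adcy3 shares 2363 exonic bases with Cenpo on the opposite strand, whose reads cannot be told apart from its own there.

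Adcy8, a cyclase stimulated by calcium and calmodulin at chr15:64568933-64794987 (- strand), rested on 13 to 240 estimated counts per sample. It measured 0.463, 0.644 and 0.831 CPM in control cells at low glucose and 0.450, 1.42, 1.11 and 0.777 CPM at high glucose. In Pcbp2βKO cells it measured 0.145, 1.22, 1.17, 0.711 and 2.40 CPM at low glucose and 0.445, 0.530, 0.231, 0.804 and 0.218 CPM at high glucose. The groups overlapped, and the low-glucose Pcbp2βKO samples spanned the whole range of the gene. The log2 fold change with glucose was 0.54 ± 0.64 in control cells and -1.34 ± 0.54 in Pcbp2βKO cells (edgeR adjusted p = 0.0684), and the difference between the 2 responses was -1.88 ± 0.84 (edgeR adjusted p = 0.9999). One annotated Adcy8 start has a full CRE 64 bases upstream, the only such window of the 10 genes around GENCODE starts, shown with the motif in capitals on the - strand of GRCm39.
Adcy8 upstream CRE (chr15:64795034-64795061): gcccagagccTGACGTCAttgaccatca
DESeq2 called the difference in Pcbp2βKO cells (log2 fold change -1.35, adjusted p = 0.0339), as did edgeR without replicate 1 at low glucose (-1.62, adjusted p = 0.0113) or without replicate 4 at high glucose (-1.67, adjusted p = 0.0362). Without replicate 5 at low glucose, the sample with the highest value, the log2 fold change was -0.86 (edgeR adjusted p = 0.240), and without the 3 libraries apart it was -1.52 (edgeR adjusted p = 0.0846).

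Adcy5, another calcium-inhibited cyclase at chr16:34975023-35126113 (+ strand), rested on 4 to 45 estimated counts per sample and lay between 0.0742 and 0.449 CPM. No comparison passed the test, the smallest edgeR adjusted p being 0.691 for the genotypes at high glucose. The 95% interval for glucose in control cells ran from -1.43 to 1.08 on the log2 scale.

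Over the 10 genes, 25 transcripts that held 10% or more of their gene's TPM, in genes with several such transcripts, were compared. Prkaca-201, with group means of 97.8% to 99.2% of TPM, was not among them. Between glucose levels 4 did not overlap in control cells and 6 in Pcbp2βKO cells, all of them among the 11 transcripts of Prkar1a, Prkar2b, Prkacb and Rapgef4. Over all genes with a mean of at least 5 TPM, 19.2% and 14.0% of transcripts did not overlap, a background that bears on those 11 and not on the other 14, whose genes had lower levels. Between genotypes 0 of the 25 were without overlap at either glucose level, as were 2.71% at high and 6.17% at low glucose of the transcripts of those more abundant genes. The 14 transcripts of Adcy3, Adcy6, Adcy8 and Adcy9 overlapped in every comparison.

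**Figure D4:**
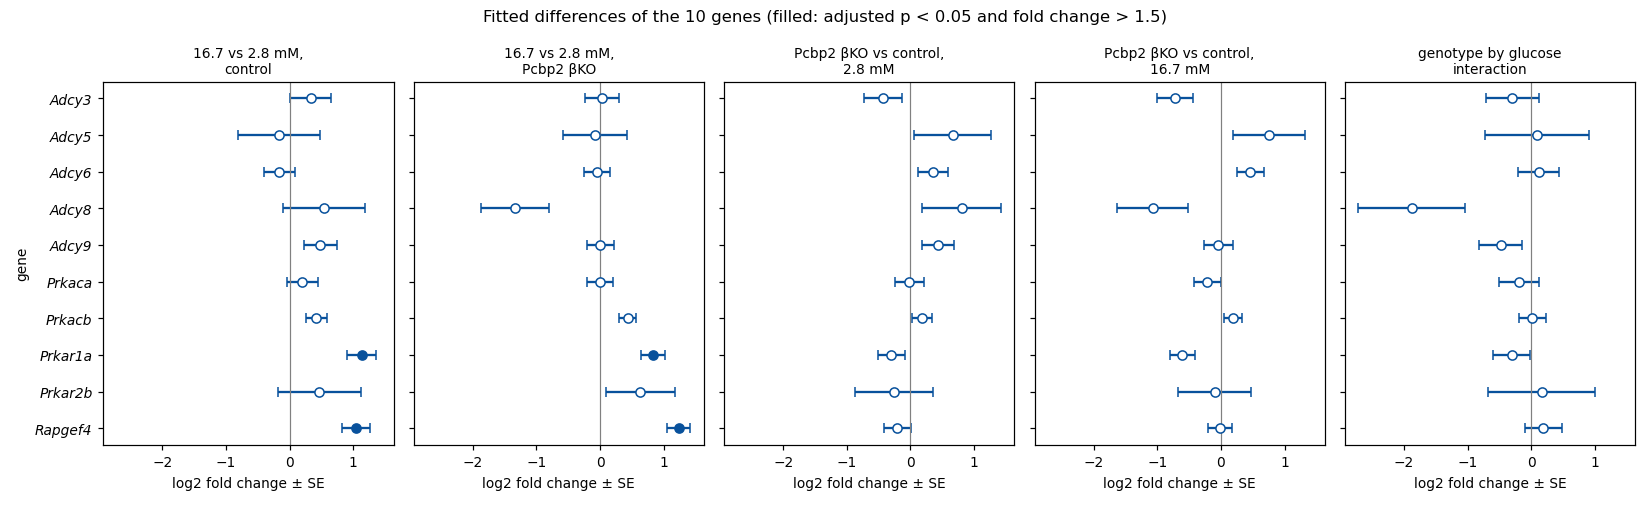
Log2 fold changes (points, edgeR) with their standard errors (bars) of the 10 genes in the 4 comparisons and the interaction. Filled points passed the test (adjusted p under 0.05 and fold change over 1.5): only Prkar1a and Rapgef4 did, in both glucose comparisons.

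With all samples, loss of Pcbp2 moved none of the 10 genes past the test at either glucose level, and Prkar1a passed at high glucose without the 3 libraries apart or without control replicate 4. By edgeR 0 of 10 were called at 16.7 mM, where 1.71% of all tested genes were, with 3 at an unadjusted p under 0.05 (Adcy3, Adcy6 and Prkar1a), as had 12.1% of all tested genes. At 2.8 mM 0 of 10 were called, where 2.05% of all were, with 0 at an unadjusted p under 0.05, as had 12.9% of all. DESeq2 likewise called 0 at either level. Over all tested genes, leaving out 1 sample moved the 388 calls at high glucose to between 213 and 654. No gene of the 10 had groups without overlap between genotypes at high glucose, where 4.49% of all tested genes had. The median log2 fold change of the 10 was -0.07 at high and 0.08 at low glucose, beside 0.01 and 0.03 for all tested genes. For the interaction edgeR and DESeq2 called 0 of 10, with 1 (Adcy8) at an unadjusted p under 0.05 in edgeR, as had 4.58% of all tested genes. Of all tested genes edgeR called 0.0044% for the interaction, the single gene Ins1.

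The size of the glucose response depended on the scale. The insulin genes Ins1 and Ins2 took 9.83% to 10.5% of all estimated counts in control cells at low glucose and 22.3% to 33.1% at high glucose, and 5.04% to 10.5% and 25.3% to 30.3% in Pcbp2βKO cells. Of TPM they took 30.8% to 35.1% and 56.9% to 60.5% in control cells, and 19.7% to 32.9% and 58.1% to 62.5% in Pcbp2βKO cells. TMM sets the typical gene as reference, and the rises above are relative to it. With scaling to total counts alone, the median gene itself shifted by -0.35 in control and -0.47 in Pcbp2βKO cells on the log2 scale. Prkar1a then changed by 0.71 (edgeR adjusted p = 0.00950) and 0.33 (0.0889), and Rapgef4 by 0.64 (0.0415) and 0.74 (0.00304). On log2(TPM + 1) tested with limma, where the median gene shifted by -0.24 and -0.33, Prkar1a changed by 0.26 in control cells and by -0.26 in Pcbp2βKO cells, and Rapgef4 by 0.17 and 0.04, none of which passed. With TPM rescaled to leave out Ins1, Ins2 and Iapp, Prkar1a changed by 1.10 and 0.89 and Rapgef4 by 1.00 and 1.17, and all 4 passed. The direction of the Prkar1a difference in Pcbp2βKO cells thus depended on the scale, while under each of these 4 scalings both genes lay above the median gene.

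**Figure D5:**
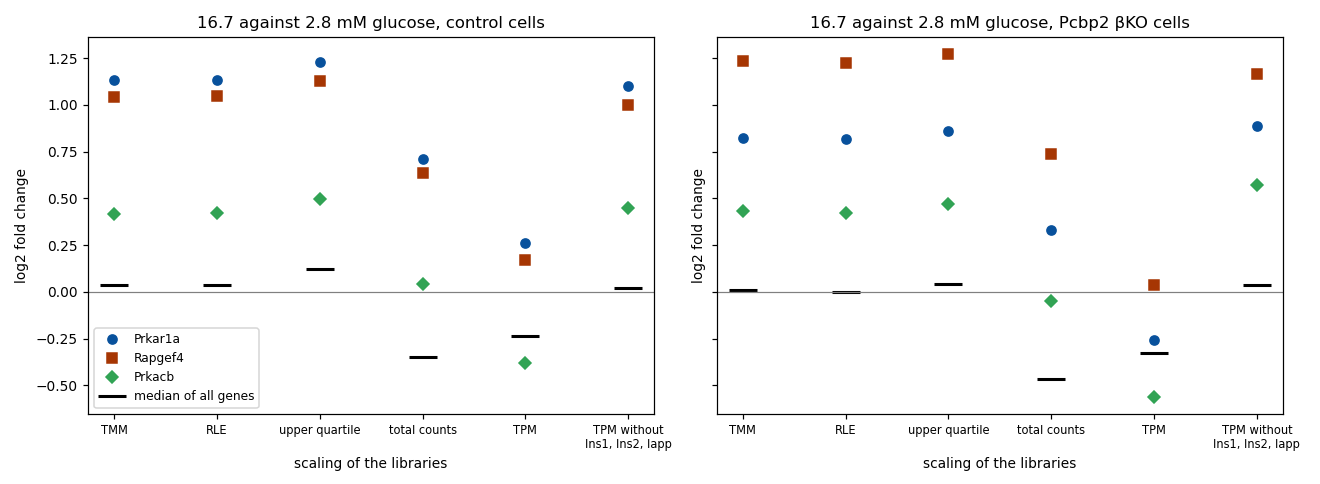
Log2 fold changes of Prkar1a, Rapgef4 and Prkacb at 16.7 against 2.8 mM glucose under 6 scalings of the libraries, in control (left) and Pcbp2βKO cells (right). Black bars are the median log2 fold change of all tested genes, which fell below 0 when libraries were scaled to total counts or to TPM; Prkar1a and Rapgef4 lay above that bar in every case.

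The remaining genes of the pathway were described from lists, at the TMM scale, and their counts of calls with glucose stand beside the 13.9% of all tested genes called in control and the 23.9% called in Pcbp2βKO cells. Of the 9 other cyclase, PKA and Epac genes, 1 was called with glucose in control cells and 3 in Pcbp2βKO cells. Prkar1b, the RIβ subunit, fell in both (log2 fold changes -0.74 and -0.67). Prkx, a kinase related to the catalytic subunits, fell in Pcbp2βKO cells (-0.62). In control cells its log2 fold change of -0.51 was not called (edgeR adjusted p = 0.0724). Adcy4 rose in Pcbp2βKO cells (2.45 ± 0.51) from 2 to 6 estimated counts per low-glucose sample to 10 to 23, at most 0.369 CPM. Of 14 tested PKA inhibitors and anchoring proteins, the same 3 rose in both genotypes: Akap6 (3.26 and 2.67), Akap13 (1.26 and 1.07) and the PKA inhibitor gene Pkib (0.90 and 1.18). The median of this list was -0.03 in control and 0.00 in Pcbp2βKO cells, while 5 and 8 of the 14 had an unadjusted p under 0.05, as had 29.3% and 39.7% of all tested genes.

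Of 17 G protein subunit genes, 5 were called with glucose in control cells (3 higher) and 6 in Pcbp2βKO cells (4 higher). Gnai2, an inhibitory α subunit that lowers cAMP production, fell by 1.08 and by 0.90 on the log2 scale. Gnaz, another inhibitory α subunit known to couple to cyclase in β cells, rose by 0.86 and 0.78, although on log2(TPM + 1) it changed by -0.33 in Pcbp2βKO cells. The β subunit gene Gnb4 rose by 1.27 and 1.31 and the γ subunit gene Gng12 by 1.11 and 1.80.

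Of 16 cAMP phosphodiesterase genes, whose products degrade cAMP, 6 were called with glucose in control cells, all higher, and 9 in Pcbp2βKO cells, 8 of them higher, with medians of 0.57 and 0.58. Pde10a rose in both (2.51 and 2.63), as did Pde11a (4.597 and 2.51), which reached at most 2.39 CPM in any sample. Between genotypes 4 phosphodiesterases were called at high glucose (1 higher) and 3 at low glucose (none higher), where 1.71% and 2.05% of all tested genes were. Pde2a fell from 17.3 ± 5.58 CPM (SD, n = 4) in control to 0.506 ± 0.176 CPM (n = 5) in Pcbp2βKO cells at high glucose and from 9.09 ± 3.20 (n = 3) to 0.719 ± 0.474 CPM (n = 5) at low glucose. Per length the difference for Pde2a was smaller, with 2.73 ± 1.10 against 0.516 ± 0.209 TPM at high and 2.35 ± 0.84 against 0.740 ± 0.419 TPM at low glucose. Pde7b fell from 7.05 ± 1.76 to 2.02 ± 0.50 CPM and from 6.02 ± 2.27 to 1.03 ± 0.21 CPM. These falls had edgeR adjusted p-values of 2.14e-06 and 5.07e-05 for Pde2a and 0.000641 and 3.33e-05 for Pde7b.

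Of 14 genes that act with Epac2 or on Rap, 2 were called with glucose in control cells, a share near the 13.9% of all genes, and 5 in Pcbp2βKO cells, where 23.9% of all genes were. The Rap exchange factor gene Rapgef5 rose in both (2.54 and 4.24) and was lower in Pcbp2βKO cells at low glucose (-3.35 ± 0.61, edgeR adjusted p = 0.00395). The low-glucose Pcbp2βKO samples held only 19 to 54 estimated counts of it. At high glucose the genotype difference of -1.65 ± 0.53 did not pass (edgeR adjusted p = 0.162). Rims1, an active-zone protein gene, rose in both from at most 0.622 CPM in any low-glucose sample (5.52 ± 1.35 and 3.35 ± 0.94). Pclo, which encodes the active-zone protein Piccolo, rose in Pcbp2βKO cells (1.09), and Rap1gap2, which inactivates Rap, fell there (-0.79). In control cells Rap1gap2 fell as well (-0.56, edgeR adjusted p = 0.0253) but stayed under 1.5-fold and was not called. Of 11 CREB factors and regulators the same 4 were called in both genotypes. Crem, whose products include repressors of CRE-driven transcription, rose (2.49 and 1.63), Sik1, a kinase that holds CREB coactivators out of the nucleus, rose (2.73 and 2.49), Creb1 fell (-0.60 and -0.81), and the coactivator gene Crtc2 fell (-0.65 and -0.66). No gene of these 6 lists was called for the interaction. All 42 calls of the genes named from the lists held without the 3 libraries apart. On log2(TPM + 1) 19 of the 42 kept their sign but no longer passed, on log2(TPM + 0.1) 13, on TPM rescaled without Ins1, Ins2 and Iapp 8, with total counts 5, and without any 1 sample at most 4. One more call was lost on each of log2(TPM + 1) and log2(TPM + 0.1), that of Gnaz in Pcbp2βKO cells, which also changed sign.

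Over all 17 samples, the genes of at least 5 CPM whose log2 CPM followed Prkar1a most closely were Gtf2b (Pearson r = 0.985), Hsd3b7 (r = 0.972) and Crem (r = 0.970), out of 10010 genes compared. For Rapgef4 they were Tmco3 (r = 0.973), Abca7 (r = 0.972) and Gusb (r = 0.970). For Adcy8, the third gene by range of group means, they were Scyl2 (r = 0.821), Zscan29 (r = 0.694) and Uhrf1bp1l (r = 0.677). These correlations are descriptions over samples that share the contrast of glucose and the libraries apart, and no test was made of them.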

How the data were processed

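The 17 samples were grouped by genotype and glucose from the labels. The study's authors aligned 150-nt read pairs to the GRCm39 transcriptome with Kallisto, and the submitters' processing notes name Kallisto and edgeR, with versions not given in the sources used here. For each of 142376 transcripts they deposited estimated counts, which are not normalized, and TPM, scaled by effective length to a common total. The deposited effective lengths, in bases, served a length-offset alternative. Estimated counts were summed per gene symbol and rounded. All samples were fitted in edgeR 4.0.16 (R 4.3.3; TMM factors, quasi-likelihood test, Benjamini-Hochberg adjustment over 22733 genes), with calls at adjusted p under 0.05 and fold change over 1.5. The study's design had a batch factor whose levels are not given in the labels, so it was not fitted. Replicate numbers paired the control samples (correlations of same-numbered deviations 0.198, 0.124 and 0.259, each over 0.1) but not all pairs of the other comparisons, so the replicate block was an alternative. The highest correlation, 0.355, joined replicate 4 of both genotypes at high glucose, and control replicate 4 correlated at 0.186 with Pcbp2βKO replicate 5. These are the libraries apart on the first component, which thus deviated together, and what they share is not given.

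Alternatives were other normalizations, DESeq2 1.42.0, limma 3.58.1 on the deposited TPM, other filters and leaving out each sample. The fits were tested on simulated data with 200 changed genes. The 10 genes, the lists and the tests were chosen with earlier results of these data known. Named were the 10 genes, Pcbp2 and Txnip as checks, at most 4 called genes per list by size of change, transcripts of 10% or more of their gene's TPM (those of the cyclases as a count, with 1 rarer Rapgef4 transcript added), and the 3 genes most correlated with the 3 members of widest range. Positions come from GENCODE vM39 (GRCm39), a newer release than that of the files. No replicate pair agreed within sampling noise. Paired reads are not independent molecules.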

Additional observations from a re-analysis of the deposited data

Results flagged for a closer look

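Of the 30 groups of 4 or 5 samples examined (10 genes in 3 groups), 2 held a sample far from the others of its group. The rule flags about 1 in 20 by chance, but the 10 genes share the same libraries, so their flags are not independent. Prkacb in replicate 5 of the Pcbp2βKO cells at low glucose measured 219 CPM, where the other 4 measured 360 to 387. Prkaca in replicate 2 of the same group measured 3.20 CPM, where the other 4 measured 4.94 to 5.39. No gene of the 10 passed a test of the difference between the glucose responses of the genotypes.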

How the results depend on the processing

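Prkar1a and Rapgef4 kept their rise with glucose in both genotypes in every fit of counts by TMM, RLE or upper-quartile factors, in DESeq2 and without any 1 sample. Leaving out 1 sample at a time gave log2 fold changes of 1.01 to 1.35 and 0.74 to 0.91 for Prkar1a and 0.87 to 1.20 and 1.11 to 1.32 for Rapgef4, in control and Pcbp2βKO cells. What changed was mostly the scale, and the cause of the other changes was not tested. By limma on log2(TPM + 1) and log2(TPM + 0.1), log2 fold changes with glucose turned to -0.26 and -0.26 for Prkar1a and -0.56 and -0.57 for Prkacb in Pcbp2βKO cells, and to -0.38 and -0.39 for Prkacb and -0.19 and -0.31 for Adcy9 in control cells, and the Rapgef4 interaction to -0.14 and -0.14. With total counts Prkacb turned to -0.051 in Pcbp2βKO cells. The genotype difference at 16.7 mM turned for Adcy3 to 0.093 with a length offset, 0.062 on log2(TPM + 0.1) and 0.078 on TPM without Ins1, Ins2 and Iapp, and for Rapgef4, near 0 throughout, to 0.011 with total counts, 0.088 with the replicate block and 0.073 without the 3 samples apart. Leaving out 1 sample gave -0.10 to 0.052 for Rapgef4 there.

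Of the 10 genes, 1 and 1 were called with glucose in control cells on log2(TPM + 1) and log2(TPM + 0.1), both times Adcy6, lower at high glucose, and 4 in Pcbp2βKO cells on the latter (Adcy6, Adcy8, Adcy9 and Prkaca), all lower. On log2(TPM + 0.1) the median of all tested genes itself shifted by -0.555 in control and -0.712 in Pcbp2βKO cells. For the genotype at 16.7 mM, 1 was called without the 3 samples apart and 0 to 1 without 1 sample, the 1 being Prkar1a without control replicate 4. Over all genes, calls for glucose in control cells numbered 4834 with total counts, 4769 with the replicate block, 6963 and 8891 by limma on log2(TPM + 1) and log2(TPM + 0.1), 4899 without the 3 samples apart, and 1384 to 4475 without 1 sample, falling to 1989 and 1384 without replicates 1 and 2 at low glucose. In Pcbp2βKO cells they numbered 8815 and 12435 by limma. For the genotype at 16.7 mM they numbered 721 by DESeq2, 237 from only the groups compared, 190 by limma on log2(TPM + 1), 589 without the 3 samples and 213 to 654 without 1 sample, without control replicates 3 and 4. At 2.8 mM they numbered 836 by DESeq2, 282 by limma on log2(TPM + 1), 307 with TPM scaled without Ins1, Ins2 and Iapp, and 243 to 532 without 1 sample, the lowest without control replicate 3. For the interaction they numbered 32 by DESeq2, 14 with no filter, 13 with the replicate block, 0, 3 and 0 by limma on log2(TPM + 1), log2(TPM + 0.1) and TPM without Ins1, Ins2 and Iapp, 2 without the 3 samples, and 0 to 2 without 1 sample. The block changed no call of the 10 genes. As shares of counts in place of TPM, Prkar1a-201 held 70.1% in control and 76.1% in Pcbp2βKO cells at low glucose. Counts were lowest for Adcy5, at 4 to 45 per sample.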
